A study of Mus musculus with 12 samples.

Results

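The left ventricle was described from 4 poly(A) RNA libraries, 1 from each of 4 sham-operated mice, out of 12 libraries in the study. These 4 were taken by their labels alone, and no values were used to choose them. The animals had a sham operation and ate normal chow, the vehicle diet, which began 4 weeks after surgery and lasted 4 weeks. The remaining libraries, from mice with the UNX/DOCA operation with or without the HDAC inhibitor ITF2357 in the chow, were not used. Strain, sex, age, genotype and the time of day of tissue collection are not given in the labels. RNA came from about 10 mg of left ventricle, and strand-specific libraries were sequenced as pairs of 150-base reads. The animals are called 1 to 4, after the replicate numbers of the labels. The comparisons are between genes inside this group and between its animals, so no test between groups was made.

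A ventricle contracts continuously, and its muscle cells are filled with sarcomeres, in which myosin pulls on actin, and with mitochondria, which burn mainly fatty acids. Each contraction starts with calcium entry through L-type channels. It continues with calcium release from the sarcoplasmic reticulum through the ryanodine receptor, and ends when the SERCA pump takes calcium back. Many of these proteins come from families of related genes, of which heart, skeletal muscle and other tissues use different members. The mouse ventricle is known for alpha-myosin, encoded by Myh6, as its adult heavy chain.

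Total counts were 25775387, 34908810, 26911240 and 25267387 in animals 1 to 4. Levels of different genes are given as TPM, which divides counts by exonic length and then by the library sum of these values. Levels of a gene in different animals are mostly given as CPM, counts relative to the library total after TMM scaling. This scaling removes differences in library composition. Where such levels are given as TPM, they carry no TMM scaling. At these depths 1 CPM is about 28.2 reads, and intervals from counts cover counting error only. The table lists 78334 genes, of which 36870 had any count and 14814 had enough counts to be called measured. It holds 1 value per gene, so ratios are between genes and not between transcripts of a gene. The labelled tissue held its defining markers: 12 of 12 ventricular myocyte genes were measured, with a summed level of 47765 to 49768 TPM. Of 12 atrial markers 8 were measured, led by Nppa at 302 TPM, which ventricles also express. Sln, the atrial inhibitor of SERCA, had 0.249 TPM, Myl7 had 0.946 TPM and Bmp10 had 0.0273 TPM. Of 16 skeletal muscle markers, 3 were measured. Myh1, Tnnc2 and Myf6 had 0 counts in each library, which allows up to 3 counts per library. Of the exonic bases of Tnnc2, 74.0% lie under a gene of the opposite strand. The strand setting of the counting is not given, so its 0 counts are uncertain. In bulk tissue, fewer cells of a type and less RNA per cell cannot be told apart.

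Few genes filled the libraries. In animals 1 to 4, 154, 148, 115 and 128 genes held 50% of all counts, with a mean of 136 ± 18.01 (SD, n = 4). Animal 3 needed the fewest genes. The 10 most counted genes held 29.3% ± 0.844 of the counts, and the 100 most counted held 47.3% ± 1.12. Genes encoded by the mitochondrial genome took 25.5% ± 0.727 of the counts and 48.0% ± 0.746 of the TPM. When these were set aside, 474 ± 38.3 genes held 50% of the remaining counts. Of the nuclear protein-coding genes, 11336 reached a mean of 1 TPM, 5593 reached 10 TPM, 676 reached 100 TPM and 51 reached 1000 TPM.

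The nuclear genes of highest TPM were led by the actin and myosin of the filaments. Actc1 (chromosome 2), the cardiac actin, had 16164, 17727, 17216 and 17665 TPM in animals 1 to 4, a mean of 17193 ± 723 (SD, n = 4). It was first in every animal. Myh6 (chromosome 14), the alpha-myosin heavy chain, was the second at 9097, 6984, 8910 and 8631 TPM, with animal 2 below the others. Mb, the myoglobin that stores oxygen in muscle, followed at 7920, 8512, 8282 and 7565 TPM. The ranges of Myh6 and Mb overlap, so their order is not fixed by these animals. Myl2, the regulatory light chain of the ventricle, had 6971 ± 363 TPM, and Fabp3, the fatty acid carrier of the cytosol, had 6563 ± 212 TPM. Myl3 and Tnnc1, the essential light chain and the calcium sensor of the thin filament, stood level at 5540 ± 292 and 5540 ± 65.0 TPM. Atp2a2, the SERCA pump, had 5280 ± 349 TPM and Slc25a4, which exchanges ADP for ATP across the mitochondrial membrane, had 4429 ± 132 TPM.

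The places from 10 to 20 mixed contraction with energy supply. Tnni3, Tpm1, Mybpc3 and Tnnt2, a troponin, a tropomyosin, a myosin-binding protein and a further troponin, had between 2315 and 4071 TPM. Atp5a1, Cox6a2 and Ckmt2, which belong to ATP synthase, cytochrome oxidase and the mitochondrial creatine shuttle, had between 2700 and 3514 TPM. The malate dehydrogenase gene Mdh1 had 2015 ± 35.1 TPM, and the chaperone gene Hspb7 and the LIM protein gene Fhl2 had 2815 ± 106 and 1909 ± 67.8 TPM. Tcap, which caps titin at the Z-disc, was the exception in spread, at 1258, 1299, 3753 and 1374 TPM. Its level in animal 3 lay far above a narrow range of the other animals. Among the other 19 genes the coefficient of variation between animals (CV, the SD over the mean, in CPM) ran from 2.67% for Tpm1 to 14.2% for Myh6.

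**Figure D1:**
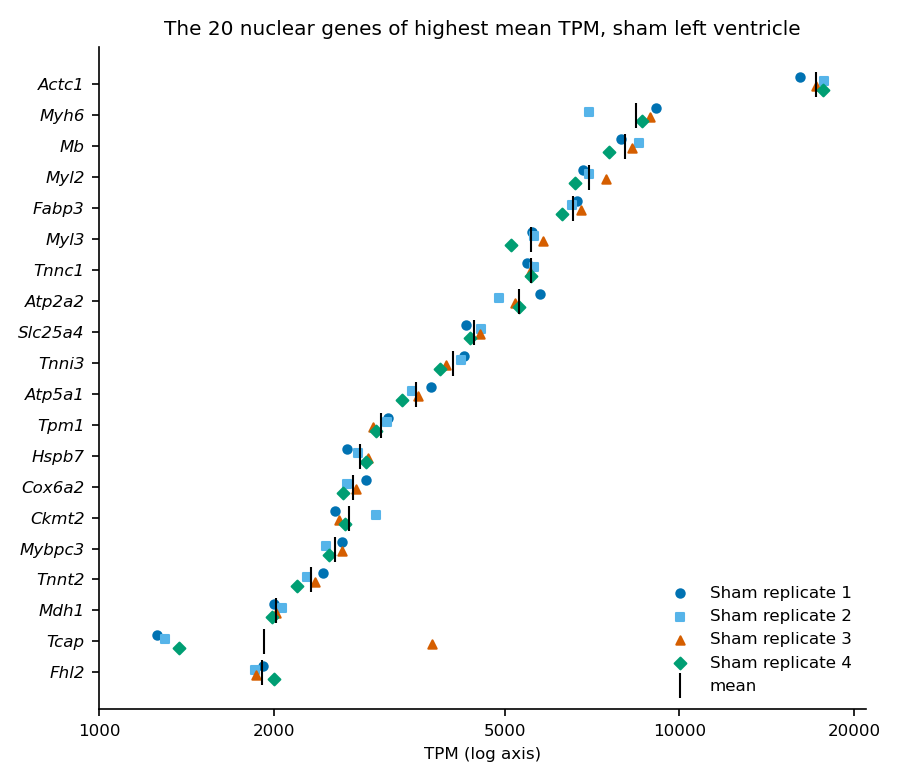
TPM on a log axis of the 20 nuclear protein-coding genes of highest mean, with a symbol for each of the 4 sham animals and a bar for the mean. Actc1 lies between 16164 and 17727 TPM, and Tcap is the gene whose value in animal 3, 3753 TPM, stands away from the other animals.

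Summed over lists, 30 sarcomere genes took 13.03% ± 0.559 of the nuclear TPM (SD, n = 4), and 24 calcium-cycling genes took 2.02% ± 0.0490. Nuclear genes of respiratory complexes II to V took 6.10% ± 0.1002 and those of complex I took 2.43% ± 0.0395. Fatty acid uptake and oxidation took 3.25% ± 0.120, with the carrier Fabp3 as the highest member. The citric acid cycle list took 2.28% ± 0.0677 and the glycolysis list took 1.81% ± 0.0279. The highest member of the first was Mdh1, at 2015 TPM, whose enzyme is in the cytosol and not in the cycle. That of the second was Ldhb, a lactate dehydrogenase gene, at 1866 TPM. The cycle and glycolysis in the strict sense thus took less. Within the complexes the members differed widely. In complexes II to V, Atp5a1 had 3514 TPM and Atp5l had 39.5 TPM. In complex I, the median over the list was 310 TPM and Ndufb2 had 1.69 TPM. Subunits that are assembled together were thus not listed at equal levels. The exonic length, by which TPM divides, is larger for Ndufb2 and Atp5l than for most members of their lists. How much of the spread comes from this length was not tested. Ketone and branched-chain amino acid use took 0.482% ± 0.0104, led by Oxct1, the enzyme that lets the heart burn ketones, at 986 TPM.

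The mitochondrial genome encodes 13 proteins, all of them subunits of the respiratory chain, from transcripts that are cut out of long precursors. Their listed levels spanned a wide range. Cytochrome oxidase subunit 1, mt-Co1, had 143850, 156460, 151310 and 152610 TPM in animals 1 to 4, and mt-Cytb had 82051 ± 3488 TPM. The complex I genes mt-Nd1, mt-Nd2, mt-Nd4, mt-Nd5 and mt-Nd6 had 75319, 47866, 30245, 27890 and 20622 TPM. In contrast, mt-Co2 had 4029, 4060, 4000 and 4194 TPM, far below mt-Co1 in every animal although both are subunits of the same enzyme. The genes mt-Co3, mt-Atp6, mt-Atp8, mt-Nd4l and mt-Nd3 had 3775, 2726, 1595, 1205 and 1127 TPM. The gene mt-Nd6 is read from the opposite strand to mt-Nd5. It had 21.02, 20.95, 20.996 and 21.19 counts for each 100 of mt-Nd5 in animals 1 to 4, an almost fixed ratio. The strand setting of the counting is not given, so the level of mt-Nd6 is uncertain. Whether reads of the mt-Nd5 strand were counted for mt-Nd6 was not tested.

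Of the 6 low mitochondrial genes, 5 have near-identical copies among the annotated nuclear genes. Of all 150-base windows of a gene, the length of a read, 99.4% of mt-Co2 and of mt-Atp6, 99.8% of mt-Co3, 98.0% of mt-Nd4l and 97.0% of mt-Nd3 occur letter for letter in an annotated gene of chromosome 1. The share was 59.2% for mt-Nd4 and 23.6% for mt-Co1, and it was 0% for mt-Cytb, mt-Nd1, mt-Nd2, mt-Nd5, mt-Nd6 and mt-Atp8. The last of these, mt-Atp8, has only 55 windows, and 21.1% of its bases lie inside mt-Atp6. Only annotated genes were searched, so a share of 0% does not exclude a copy elsewhere in the nuclear genome. The first 90 bases of mt-Co2 and of its chromosome 1 copy, taken from transcripts of the GRCm38 build, are the same in every letter, and are shown because reads that begin here match both places equally well.
mt-Co2: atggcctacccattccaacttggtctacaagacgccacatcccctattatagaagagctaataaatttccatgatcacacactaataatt
Gm28661: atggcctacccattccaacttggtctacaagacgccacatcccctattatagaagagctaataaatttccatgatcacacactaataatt
The copies themselves carried counts at similar levels. Gm28661 had 3510 ± 177 TPM (SD, n = 4), Gm10925, the copy of mt-Atp6, had 4621 ± 233 TPM, and Gm28437, the copy of mt-Co3, had 3933 ± 235 TPM. The copy of mt-Nd4l, Gm10222, had 1117 ± 99.8 TPM, while Gm28438, which holds the windows of mt-Nd3, had 0 counts. Gm13340 on chromosome 2, of the same length as mt-Co1 and 97.6% identical to it, had 4125 ± 266 TPM, with no 150-base window in common. A list of 7 copies, which leaves out Gm10222, summed to 4.78% ± 0.258 of the TPM assigned to nuclear genes. The labels do not say how reads with several places were treated, and the levels of these mitochondrial genes and of their copies are therefore uncertain. The 7 copies and Gm10222 were chosen after their values were seen.

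**Figure D2:**
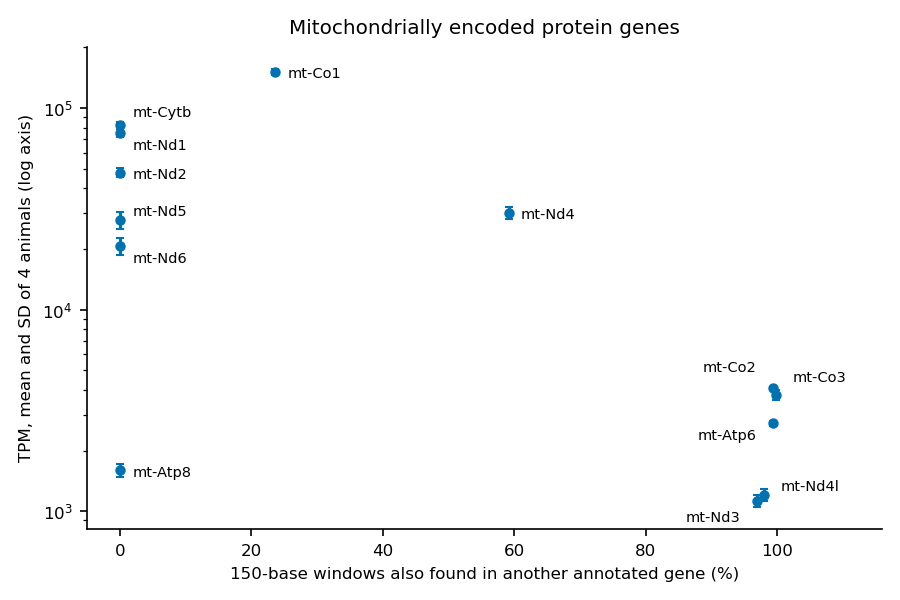
Mean TPM with SD of 4 animals (log axis) of the 13 mitochondrially encoded protein genes against the percentage of their 150-base windows found in another annotated gene. The 5 genes with 97.0% or more of shared windows have between 1127 and 4071 TPM. All genes without shared windows other than mt-Atp8 are listed at 20622 TPM or more. The lowest of these, mt-Nd6, is uncertain because the strand setting of the counting is not given.

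Related genes were compared in 81 sets with 253 genes, as the share of a set's TPM that each member took in each animal. In 35 sets the first member held over 90%, in 35 it held 50 to 90%, and in 11 it held under 50%. The same member was first in all 4 animals in 75 of the 81 sets. For the 73 sets with counts enough for a ratio of the first to the second member, the median CV of that ratio between animals was 13.3%. Reads rarely had a choice between relatives: 224 of the 253 genes shared no 150-base window with another annotated gene. Actg1, Atp5g2, Pgam1 and Cpt1b were those that shared over 20% of their windows. With the longest transcript in place of the exonic length the same member led 76 of the 81 sets, and Itpr1, Camk2d, Hk1, Mef2a and Timp3 came first in the others.

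The sarcomere was close to a single choice of gene. Myh6 took 98.7, 98.4, 98.3 and 98.5% of the cardiac myosin heavy chains in animals 1 to 4. Myh7, the slower beta chain, took 0.799, 0.802, 0.952 and 0.853%, with animal 3 above the others, and Myh7b took 0.708% ± 0.122 (SD, n = 4). Myl2 took 99.2% ± 0.0844 of the regulatory light chains and Myl3 took 98.2% ± 0.144 of the essential ones. Tnni3 and Tnnt2, the cardiac forms of troponin I and T, took 99.98% and 99.7%. Tnnc2, the fast skeletal troponin C, had 0 counts beside Tnnc1, which is uncertain because of its overlap with a gene of the opposite strand. Tpm1 took 96.3% ± 0.200 of the tropomyosins, Actn2 took 96.5% ± 0.381 of the alpha-actinins and Mybpc3 took 99.2% ± 0.119 of the myosin-binding proteins C.

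The sarcomeric actins differed between animals. Actc1 took 93.5, 90.4, 87.9 and 85.7% of the set, and Acta1, the skeletal actin, took 5.10, 7.78, 10.9 and 12.5%. Acta1 itself had 882, 1525, 2136 and 2573 TPM, so in TPM, without TMM scaling, animal 4 was 2.92 times animal 1. After Acta1 the highest skeletal muscle markers were Casq1 at 23.6 TPM, Mybpc2 at 21.5 TPM and Mylpf at 1.14 TPM. Myh4, Myh2 and Ryr1 had means of 0.00382, 0.0112 and 0.00638 TPM.

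Calcium handling was likewise taken by single members. Atp2a2 held 99.88% of the SERCA pumps, Pln, the phospholamban that restrains SERCA, held 99.93% of its inhibitors, and Ryr2 held 99.89% of the ryanodine receptors. Casq2, which stores calcium in the reticulum, took 97.5% ± 0.710 of its set, and Slc8a1, the exchanger that removes calcium from the cell, took 99.2% ± 0.375. The L-type pore Cacna1c took 94.7% ± 1.76 of its set. The inositol trisphosphate receptors were mixed, with Itpr2 at 46.9% ± 1.81, Itpr1 at 34.7% ± 2.38 and Itpr3 at 18.4% ± 1.18. Among the CaM kinases II, Camk2g took 36.9% ± 2.01, Camk2d took 34.6% ± 0.393 and Camk2a took 23.96% ± 1.63. By counts without division by length, Camk2d was first at 63.0%.

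Several sets of potassium channels, and the connexins, differed between animals. Of the Kir2 channels, which hold the resting potential, Kcnj12 took 40.2, 44.1, 63.9 and 48.2% and Kcnj2 took 57.5, 51.6, 31.4 and 46.6%. Kcnj2 was first in animals 1 and 2, and Kcnj12 in animals 3 and 4. Without animal 3 the order of the means turned, with Kcnj2 at 51.9%. Kcnd2 took 74.9% ± 3.62 of the Kv4 channels of early repolarization. Kcnj11 and Abcc9 were first among the pores and receptors of the ATP-sensitive channel, at 61.3% ± 2.96 and 92.3% ± 0.502. Hcn2 took 72.1, 87.7, 78.3 and 83.2% of the pacemaker channels, ahead of Hcn4 at 12.4% ± 3.04. Gja1, the connexin of the ventricle, took 86.0, 85.2, 72.9 and 83.8% of the connexins, lowest in animal 3. Atp1b1 took 73.2% ± 1.14 of the beta subunits of the sodium pump.

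Energy genes divided into heart forms and forms common to all tissues. Cox6a2 and Cox8b, muscle forms of cytochrome oxidase subunits, took 94.7% ± 0.781 and 87.0% ± 1.23 of their sets. In subunit 7a the common form Cox7a2 led at 61.6% ± 1.31, and the muscle form Cox7a1 took 13.5% ± 1.16. Slc25a4 took 90.7% ± 1.06 of the ADP/ATP carriers, Ckm 96.5% ± 0.583 of the cytosolic creatine kinases and Ckmt2 99.99% of the mitochondrial ones. Ldhb, the lactate dehydrogenase of oxidative tissue, took 84.9% ± 0.837 over Ldha. Slc2a4, the insulin-sensitive glucose transporter, took 97.2% ± 0.153, with Slc2a1 at 2.55% ± 0.1103. Pfkm, Eno3 and Pgam2, the muscle forms of 3 steps of glycolysis, took 91.6% ± 0.471, 97.8% ± 0.309 and 97.0% ± 0.737. Hk2 took 63.1% ± 1.76 and Hk1 took 36.2% ± 1.82 of the hexokinases. Aldoa, the muscle aldolase, was listed at only 82, 90, 70 and 70 counts, or 2.24 TPM, and shares no 150-base window with another gene in the annotation used here. It was picked out after its value was seen.

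Sets of fuel selection genes differed between animals. Pyruvate dehydrogenase kinases block the entry of pyruvate into the citric acid cycle. Pdk4 took 47.7, 39.4, 76.8 and 67.5% of them and Pdk2 took 41.4, 46.9, 18.1 and 25.2%. Pdk4 was first in animals 1, 3 and 4, and Pdk2 was first in animal 2. Of the uncoupling proteins, Ucp2 took 62.8, 72.1, 50.5 and 49.2% and Ucp3, the form of muscle, took 37.2, 27.7, 49.5 and 50.6%. Acacb, which makes the malonyl-CoA that restrains fatty acid entry, took 97.8% ± 0.142 of the acetyl-CoA carboxylases, and Acsl1 took 92.3% ± 1.14 of the acyl-CoA synthetases. Prkaa2 took 85.9% ± 1.16 of the catalytic subunits of AMPK, the kinase that senses low energy.

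The gate of fatty acid entry into mitochondria, carnitine palmitoyltransferase 1, was listed in a form that needs care. Cpt1b is known as the muscle form, yet it had only 124, 107, 127 and 95 counts, or 2.84 ± 0.585 TPM. Cpt1a, the liver form, had 13.5 TPM and took 79.5% ± 4.01 of the set. In the annotation used here 81.4% of the exonic bases of Cpt1b, and 72.7% of its 150-base windows, also belong to Gm44502, a longer gene on the same strand that spans it. Gm44502 had 0 counts in every library, and Chkb, the neighbour of Cpt1b, had 9, 6, 10 and 4 counts. Of the 4 set members with over 20% shared windows, Cpt1b had the highest share. The level of Cpt1b and the order of Cpt1a and Cpt1b are therefore uncertain here.

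Receptors and transcription factors were often divided among relatives. Of the PPAR receptors, which drive fatty acid genes, Ppara took 60.5% ± 2.61, Pparg 25.8% ± 3.02 and Ppard 13.7% ± 0.767. Esrra took 66.5% ± 1.26 of the estrogen-related receptors and Ppargc1a took 69.0% ± 4.85 of the PGC-1 coactivators. The corticoid receptors were Nr3c1, the glucocorticoid receptor, at 75.7, 79.5, 64.1 and 75.8% and Nr3c2, the mineralocorticoid receptor, at 24.3, 20.5, 35.9 and 24.2%. Animal 3 had the lowest Nr3c1, at 15.9 TPM against 23.3 to 27.3 TPM in the others. Hsd11b1, which regenerates active glucocorticoid, took 97.7% ± 0.858, and Hsd11b2, which inactivates it in aldosterone target cells, had 0.245 TPM.

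Gata4 took 69.5% ± 4.30 over Gata6 at 30.5% ± 4.28, Tbx20 took 56.2% ± 2.80 over Tbx5 at 28.0% ± 3.43, and Hand1 had 0 counts beside Hand2. Mef2d led its set at 59.6% ± 1.22 per length, and Mef2a led by counts alone at 47.8%. Adra1b took 75.4% ± 4.06 over Adra1a, and Agtr1a took 99.9% of the angiotensin receptors. Class I histone deacetylases, which remove acetyl groups from chromatin, had Hdac2 at 40.4, 42.8, 42.4 and 43.4% and Hdac3 at 41.7, 40.03, 39.8 and 38.5%. These overlap in range, and Hdac3 was first in animal 1. Hdac1 took 15.3% ± 0.501 and Hdac8 took 2.38% ± 0.180. In class II and IV, Hdac5 led at 33.2% ± 1.13 and Hdac7 followed at 25.6% ± 3.48.

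**Figure D3:**
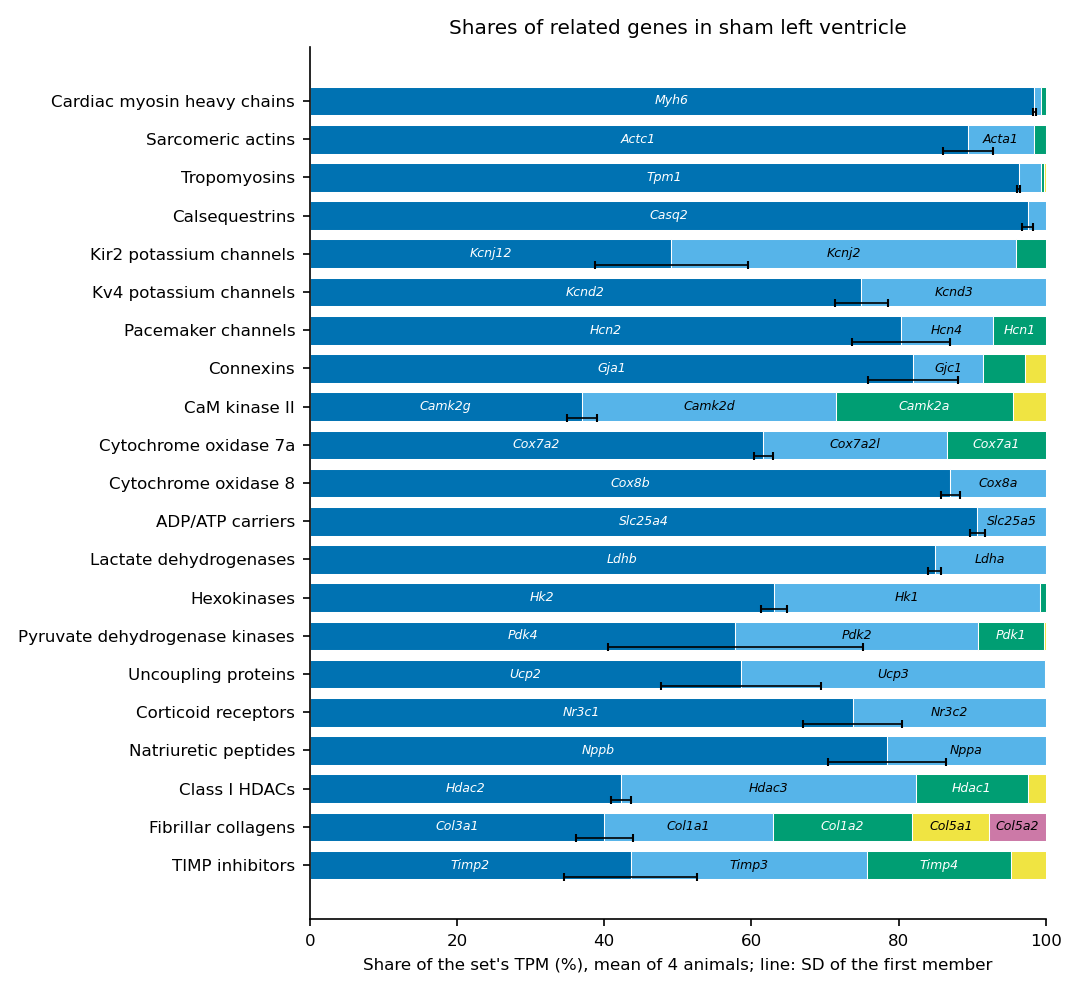
Share of each member in the TPM of 21 sets of related genes, as the mean of 4 sham animals, with the SD of the first member as a black line. Myh6, Tpm1 and Casq2 fill their sets, while the lines for Kir2 channels, pyruvate dehydrogenase kinases and uncoupling proteins are the longest.

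Matrix genes came as mixtures. Of the fibrillar collagens, Col3a1 took 40.02% ± 3.89, Col1a1 22.9% ± 1.34 and Col1a2 18.9% ± 2.47. Basement membrane collagen exceeded it per gene, with Col4a1 at 109 TPM and Col4a2 at 89.0 TPM against 37.5 TPM for Col3a1. Lama2, the laminin chain of muscle, took 39.97% ± 3.23 over Lama5 at 35.6% ± 2.85, although Lama5 was first in animal 4, and Lamb2 took 80.9% ± 0.873 of the beta chains. The metalloproteinase inhibitors varied, with Timp2 at 52.2, 48.2, 31.4 and 42.6% and Timp3 at 25.6, 29.3, 40.7 and 33.1%. Timp3 was first in animal 3. Tgfb1 took 46.9% ± 1.93 of the TGF-beta ligands, followed by Tgfb3 at 35.3% ± 2.03.

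Cell types other than myocytes were present at lower and graded levels. All 15 endothelial markers were measured, led by Eng at 104 TPM, Cdh5 at 83.7 TPM and Pecam1 at 60.1 TPM. Fibroblast markers were led by Gsn at 676 TPM, a gene that other cells also use, and Dcn at 169 TPM. Pericyte markers Rgs5 and Abcc9 had 303 and 124 TPM, the second also being the channel subunit of myocytes. Smooth muscle genes were uneven: Acta2 had 305 TPM and Myh11 had 6.80 TPM, while Tagln had 0.170 TPM and 67.9% of its exonic bases lie under a gene of the opposite strand. Macrophage markers had a median of 13.8 TPM, with Lyz2 at 93.3 TPM and C1qb at 69.4 TPM. None of 14 T and NK cell markers was measured, and Cd3e had 0.146 TPM. Of 10 white fat markers 3 were measured, Plin4 at 127 TPM, Scd1 at 5.65 TPM and Cfd at 3.04 TPM, and the list summed to between 117 and 170 TPM, while Adipoq had 0.231 TPM and Lep had 0 counts. Of 8 brown fat markers 4 were measured, led by Cox8b at 1663 TPM, a cytochrome oxidase subunit that heart muscle also uses, and Ucp1 had 0.0243 TPM. Globin transcripts were present, Hba-a1 at 559 TPM and Hbb-bs at 437 TPM, although pairs of globin genes share between 45.6 and 73.1% of their windows.

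The animals agreed closely for most genes. Over the 9976 genes with a mean of 5 CPM or more, the median CV between animals was 7.61%, where counting error alone gives 3.76%. The common biological CV estimated by edgeR over all measured genes was 12.5%. The median CV was 17.3% at 1 to 5 CPM, 9.62% at 5 to 20 CPM, 6.54% at 20 to 100 CPM and 7.34% above 1000 CPM, so it stopped falling while counting error went on falling to 0.491%. A CV over 30% was found for 276 genes, or 2.77%. Of these, 145 were highest in animal 3, 57 in animal 1, 40 in animal 4 and 34 in animal 2. Animal 3 was thus highest in 52.5% of them, beside 32.6% of all 9976 genes, and by library totals it was highest in 1374 of all genes in place of 3250. Animal 3 was at least 1.5 times every other animal in 118 genes (1.18%), against 26 (0.261%), 4 (0.0401%) and 21 (0.211%) for animals 1, 2 and 4. In 81 genes (0.812%) every other animal was at least 1.5 times animal 3, against 16 (0.16%), 18 (0.18%) and 21 (0.211%) for animals 1, 2 and 4. Without animal 3 the count over a CV of 30% was 153 and the biological CV was 10.1%.

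**Figure D4:**
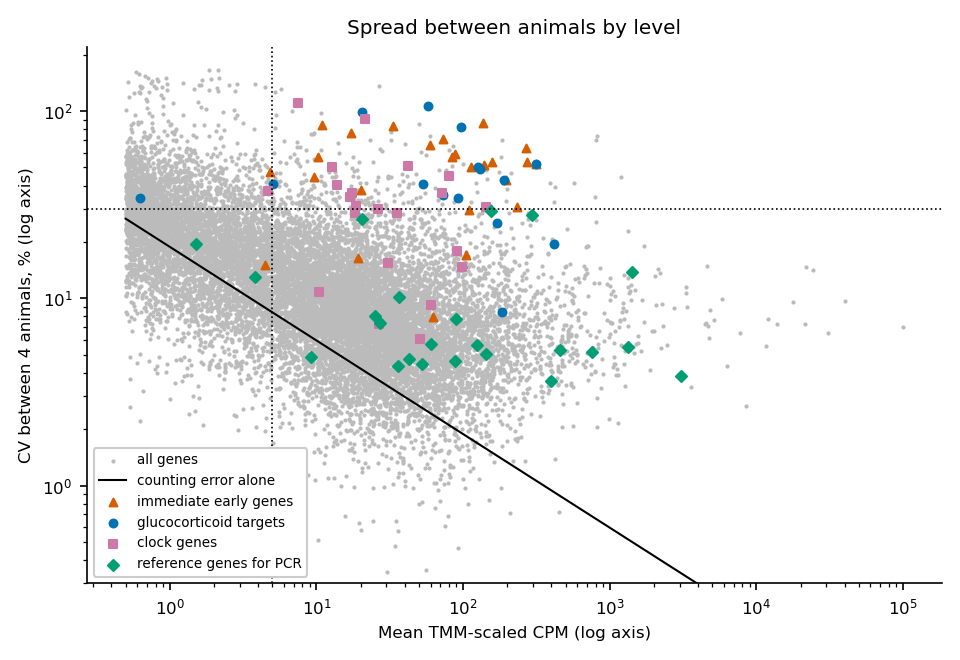
CV between 4 sham animals against mean CPM, both on log axes, for all genes in grey and for 4 lists in colour. The black curve is the CV from counting alone, and dotted lines mark 5 CPM and a CV of 30%. Immediate early genes, glucocorticoid targets and clock genes lie mostly above 30%, and all reference genes for PCR at 5 CPM or more lie below it.

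The genes of highest excess spread fell into recognisable groups. Kap and Pck1, genes of the kidney tubule, were high in animals 2 and 4 alone. Fkbp5, Map3k6 and Zbtb16, known targets of the glucocorticoid receptor, were highest in animal 3, and so was Hif3a. Ciart and Dbp belong to the clock, also highest in animal 3. Fos, Egr2, Egr3 and Nr4a3 are immediate early genes, and Ccl2 is a chemokine. Others were Setdb2, Chac1, Rnf144b, Fam117b, Kcne1 and Arrdc2, and these 6 were all highest in animal 3. Kcne1, the accessory subunit of a repolarizing potassium channel, had 4.60, 4.33, 19.9 and 9.39 CPM. Fam117b had 19.9, 19.2, 69.7 and 19.9 CPM, an even level in 3 animals and a single high one.

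Immediate early genes, which respond within minutes to stimulation, varied strongly as a list, with a median CV of 53.3%. Of 23 at 5 CPM or more, 19 had a CV over 30%, beside 2.77% of all genes. They were highest in animal 1 for 16 and lowest in animal 4 for 15, beside 2471 and 1982 of all 9976 genes. By library totals the counts were 18 and 15, beside 3455 and 2099 of all genes. Fos had 287, 64.8, 177 and 21.4 CPM, so animals 1 and 3 were high and animal 4 low. Egr1 had 478, 183, 323 and 87.0 CPM and Btg2 had 426, 194, 364 and 112 CPM, in the same order of animals. Dusp1, a phosphatase that ends MAP kinase signals, had 485, 277, 398 and 104 CPM. Egr2 was high in animal 1 alone, at 24.8, 6.88, 7.37 and 4.79 CPM. Nr4a3 went the other way, at 12.1, 18.6, 29.1 and 73.8 CPM, with animal 4 highest. Jund and Fosl2 had CVs of 16.4 and 7.94%. This list and those below were chosen with earlier results of these data known. Their counts beside all genes therefore describe the lists and are not a test.

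Promoters of these genes are known to hold sites for serum response factor (the CArG box) and for CREB (the CRE, TGACGTCA). Both strands of the 250 bases before each RefSeq gene start were searched for these letters, and 21 of the 26 genes had a promoter in the table. A CArG box was found in 2, Egr2 and Zfp36, beside 1.62% of all genes. A full CRE was found in 3, Btg2, Dusp1 and Maff, beside 1.77% of all genes. The 80 bases around an element are shown for 1 gene of each kind, from GRCm38.p6, in capitals at the element.
Zfp36, CArG box, chr7:28379242-28379321, minus strand: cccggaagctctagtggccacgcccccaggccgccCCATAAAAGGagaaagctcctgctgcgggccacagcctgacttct
Btg2, CRE, chr1:134079278-134079357, minus strand: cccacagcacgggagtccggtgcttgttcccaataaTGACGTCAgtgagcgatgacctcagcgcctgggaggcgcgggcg
Zfp36, which destabilises cytokine transcripts, had 196, 88.4, 202 and 65.2 CPM, and Btg2 is given above. Both were high in animals 1 and 3. A match of letters describes the sequence and was not tested as a binding site.

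Clock genes, whose transcripts oscillate over the day, had a median CV of 30.8%. Of 21 at 5 CPM or more, 12 had a CV over 30%, and 16 were highest in animal 3, beside 3250 of all 9976 genes. By library totals these counts were 14 and 1374. Without animal 3 the count was 6. Ciart had 2.56, 4.22, 19.7 and 3.20 CPM and Dbp had 8.33, 17.7, 49.98 and 9.95 CPM, both far higher in animal 3. Nr1d1, a repressor in the clock loop, had 12.8, 43.8, 63.9 and 48.5 CPM, lowest in animal 1. Arntl, the activator that Nr1d1 represses, had 16.6, 12.5, 6.70 and 19.7 CPM, and Cry1 had 21.2, 12.8, 5.99 and 10.7 CPM, both lowest in animal 3. Per1, which belongs also to the glucocorticoid list, had 53.9, 54.5, 110 and 69.8 CPM. Bhlhe40, Rora and Clock differed little, with CVs of 6.10, 7.25 and 9.20%.

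The core clock acts through the E-box CACGTG. It was found within 250 bases before the start in 5 of the 18 clock genes with a promoter in the table, Bhlhe41, Ciart, Cry1, Per1 and Tef, beside 6.86% of all genes. It was also found in 5 of 17 glucocorticoid targets (29.4%) and 5 of 21 immediate early genes (23.8%). Ciart, which had the highest CV of the list, held 3 of them in 80 bases.
Ciart, E-box, chr3:95882266-95882345, minus strand: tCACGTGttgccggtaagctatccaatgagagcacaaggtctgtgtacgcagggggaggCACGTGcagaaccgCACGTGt
Cry1, E-box, chr10:85185072-85185151, minus strand: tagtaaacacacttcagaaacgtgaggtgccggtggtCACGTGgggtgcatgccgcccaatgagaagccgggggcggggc
The pair held the same element and stood at opposite ends in animal 3, with Ciart at its highest and Cry1 at its lowest.

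Glucocorticoid targets were set apart by animal 3. Of 17 at 5 CPM or more, 13 had a CV over 30%, 15 were highest in animal 3, and 8 were at least 1.5 times every other animal there, beside 1.18% of all genes. By library totals, 12 of 16 were highest there. Without animal 3, 4 had a CV over 30%. Fkbp5, a co-chaperone that damps the glucocorticoid receptor, had 25.2, 35.4, 150 and 20.9 CPM, with the others far below animal 3. Map3k6 had 8.86, 9.16, 50.6 and 13.3 CPM, Zbtb16 had 66.9, 86.0, 211 and 25.01 CPM, and Klf15 had 39.1, 40.5, 84.8 and 47.7 CPM. Mt1, a metallothionein, had 80.2, 96.4, 220 and 109 CPM. Sgk1 and Tsc22d3, both textbook targets, were also highest in animal 3 but differed less, with CVs of 8.48 and 14.8%. The list shares Per1 and Tsc22d3 with the clock list and Dusp1 with the immediate early list. It was also chosen with earlier results of these data known, so its counts are descriptive.

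The palindromic response element, searched as GNACANNNTGTNC, was found before the start of Map3k6, Mt1 and Sgk1, 3 of 17 genes, beside 0.44% of all genes. Of these, Map3k6 and Mt1 were highest in animal 3 by over 1.5 times, and Sgk1 was not.
Map3k6, response element, chr4:133240603-133240682, plus strand: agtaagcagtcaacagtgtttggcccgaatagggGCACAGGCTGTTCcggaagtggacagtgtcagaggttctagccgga
Mt1, response element, chr8:94178961-94179040, plus strand: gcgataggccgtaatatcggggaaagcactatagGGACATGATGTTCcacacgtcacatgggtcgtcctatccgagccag

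Genes of fasting and fatty acid use were also mostly highest in animal 3. Of 17 genes of the fasting list, 4 had a CV over 30% (2 without animal 3) and 14 were highest in animal 3 (12 by library totals). Over all 9976 genes, 2.77% had a CV over 30% and 3250 were highest in animal 3 (1374 by library totals). The fasting and fatty acid oxidation lists both hold Fabp3, so their counts are not independent. Pdk4 had 429, 296, 1640 and 927 CPM, so animals 3 and 4 stood above 1 and 2, and Ucp3 had 13.8, 8.77, 45.0 and 24.7 CPM in the same order. Angptl4, a secreted inhibitor of lipoprotein lipase, had 2.49, 1.97, 6.504 and 6.07 CPM, below the level for the count. The 23 fatty acid oxidation genes were all highest in animal 3, with a median log2 deviation of 0.18 from the mean of the 4 animals and no CV over 30%. By library totals, 17 of the 23 were. The same rank held under TMM for 36 of 38 genes of complexes II to V, with a deviation of 0.09, but for 3 of 38 under library totals, so it is not a stable feature of the respiratory chain.

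**Figure D5:**
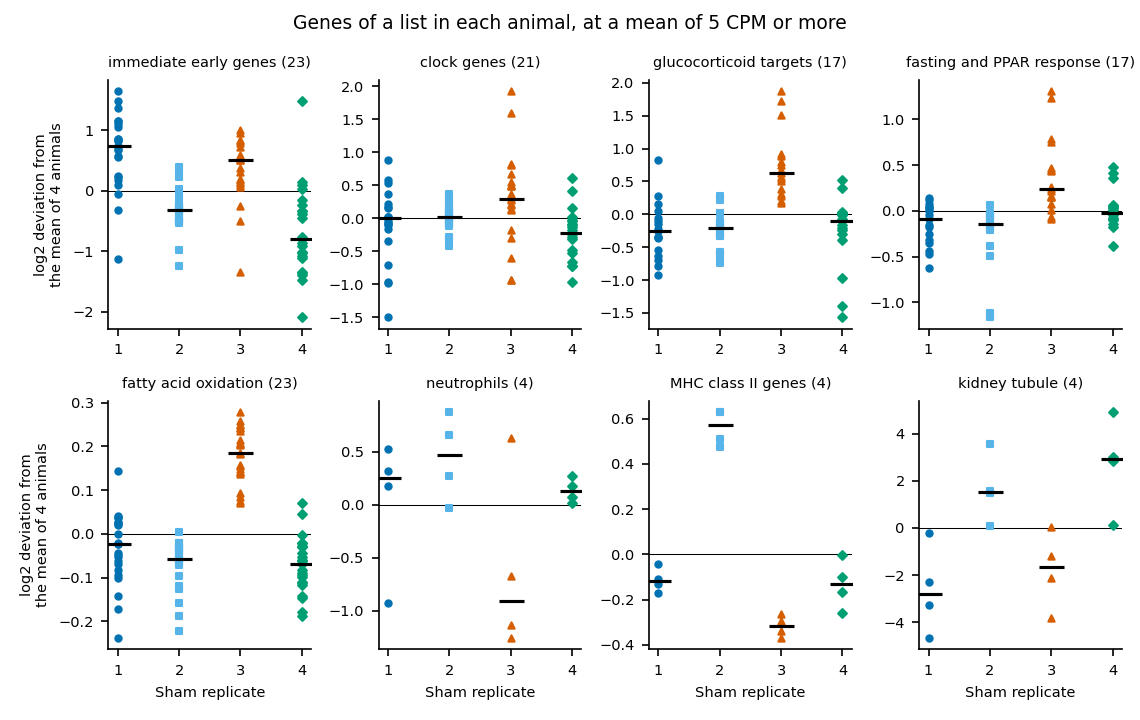
Log2 deviation of each gene at 5 CPM or more from its mean over 4 sham animals, for 8 lists with the number of genes in brackets, with a black bar at the median. Animal 3 stands highest for glucocorticoid targets and fatty acid oxidation, animal 1 for immediate early genes, animal 2 for MHC class II genes, and animals 2 and 4 for kidney tubule genes. The vertical axes differ between panels.

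Genes of the kidney tubule differed between animals. Kap, a gene of the kidney proximal tubule, had 0, 1067, 2 and 1919 counts, or 0, 29.6, 0.0788 and 76.7 CPM. Pck1 had 0.113, 5.63, 0.788 and 16.3 CPM and Umod, the protein of the loop of Henle, had 0, 1.61, 0 and 6.03 CPM. Slc34a1, Lrp2 and Slc12a1 followed the same order, at 5.71, 5.95 and 2.56 CPM in animal 4 and at most 0.0394 CPM in animals 1 and 3. Of the list of 18 kidney genes, picked after these values were seen, the summed level was 32.5, 160, 35.2 and 338 TPM. Cyp4b1 made up most of the sum in animals 1 and 3 and was even across animals at 27.6 to 34.8 CPM. Among liver markers, Alb had a mean of 0.0170 TPM, with Fgb and Cyp3a11 at 0 counts. The source of these counts was not tested.

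MHC class II genes were highest in animal 2 and lowest in animal 3, and neutrophil genes were mostly lowest in animal 3. S100a9 and S100a8, abundant cytosolic proteins of neutrophils, had 14.4, 18.2, 4.77 and 13.9 CPM and 7.84, 12.8, 3.11 and 7.31 CPM. The neutrophil list summed to 118, 179, 43.5 and 115 TPM. Its 4 members at 5 CPM or more all had a CV over 30%, beside 2.77% of all genes. Of these 4, 3 were lowest in animal 3 and 1 in animal 1. They were highest in animal 2 for 2, in animal 1 for 1 and in animal 3 for 1. Over all 9976 genes, 3093 were lowest in animal 3 and 2206 highest in animal 2. Camp and Ngp, which mark neutrophil precursors, were high in animal 2 alone, at 2.08 and 7.05 CPM against at most 0.200 and 0.719 CPM. The MHC class II genes Cd74, H2-Aa, H2-Ab1 and H2-Eb1 were highest in animal 2 and lowest in animal 3 in all 4 cases. H2-Aa had 28.9, 50.4, 26.6 and 29.0 CPM. Macrophage markers differed less, summing to 366, 446, 304 and 398 TPM.

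Genes of load and of the fetal programme, which the stressed heart turns on, varied already in sham animals. Of 12 at 5 CPM or more, 5 had a CV over 30%, beside 2.77% of all genes. Nppb, the B-type natriuretic peptide, had 392, 298, 623 and 260 CPM, highest in animal 3, and Nppa, the A-type, had 77.2, 85.8, 148 and 143 CPM, high in animals 3 and 4. Nppb thus took 84.9, 79.4, 82.4 and 66.8% of the natriuretic peptides. Of the exonic bases of Nppa, 61.5% lie under a gene of the opposite strand, and of those of Nppb, 0%. The strand setting of the counting is not given, so the level of Nppa and these shares are uncertain. Ccn2, a matrix-associated growth regulator, had 197, 77.9, 363 and 101 CPM, and Ankrd1 had 627, 701, 1096 and 797 CPM. Myh7 and Csrp3 had CVs of 21.2 and 8.47%. Of the 30 genes of the sarcomere list, 2 had a CV over 30%, beside 2.77% of all genes. These were Tcap and Lmod2, the second at 649, 655, 1203 and 651 CPM, and both were high in animal 3 alone. The skeletal actin Acta1, with a CV of 44.4%, is not in that list. A count of 2 is too small to set the list apart from all genes.

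Secreted factors and regulators filled the range between. Of 52 genes for hormones and cytokines, 40 were measured. After Nppb at 1162 TPM came Sparcl1 at 364 TPM, Vegfb at 362 TPM and Nppa at 302 TPM, and Vegfa had 192 TPM. Ren1, Bmp10 and Apela had under 0.03 TPM. All 42 cardiac transcription factors and cofactors were measured, led by Csrp3, Ankrd1, Smyd1 and Nfe2l1 at 1065, 645, 341 and 235 TPM. Beside 2.77% of all genes, 3 of the 39 at 5 CPM or more had a CV over 30%. Foxo3 was 1 of them, with 76.4, 77.5, 179 and 69.3 CPM, high in animal 3 alone, and Klf15 and Wt1 were the others. Cell division genes were near the limit of measurement, with a median of 0.918 TPM, and Mki67 had 1.34 TPM.

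At the other end stood genes that hardly differed. The 10 of lowest excess spread at 20 CPM or more were Zcchc17, Gnb4, Traf6, Clns1a, Tubgcp3, Ccnd1, Krr1, Tmub2, Dolk and B3gat3. Zcchc17 had 20.06, 19.96, 19.98 and 20.22 CPM, a CV of 0.581% where counting alone gives 4.20%, so 4 animals came closer than counting error by itself would place them. All 10 lay below their counting CV and near 20 to 24 CPM. They were picked as the lowest of all genes, so these values describe the choice.

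Reference genes used in quantitative PCR had a median CV of 5.50%, beside 7.61% for all genes, and 0 of 21 at 5 CPM or more exceeded 30%. Gapdh had 2959, 2990, 3214 and 2997 CPM, a CV of 3.85%. Pgk1, Hprt and Tbp had CVs of 3.61, 4.43 and 4.85%, and Rpl32, Rpl4, Ywhaz, Eef1a1, Sdha, Polr2a and Ppia had CVs from 4.63 to 5.66%. Ipo8, B2m, Gusb and Rplp0 had CVs from 7.40 to 10.1%. Tfrc had 104, 156, 144 and 213 CPM and Actb had 416, 263, 231 and 271 CPM, with CVs of 29.2 and 28.0%. Actb, a cytoplasmic actin often used as a reference, was high in animal 1, and Eef2 lay between at 13.8%. Rpl13a and Rps18 were listed at only 4.16 and 1.44 TPM and had CVs of 12.96 and 19.5%. By library totals 1 gene exceeded 30%, and without animal 2, 3 or 4 the count was 3, 1 and 2.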

How the data were processed

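The authors deposited raw counts per gene, and per the submitters' processing notes FastQC 0.11.9, STAR 2.7.10b and the mm39 genome were used. The counting tool, its annotation and its strand setting were not given in the sources used here. The 4 sham columns of the count table were used, and the other 8 were not. Members and gene lists were chosen with earlier results of these data known, and the kidney, liver and nuclear copy lists after their values were seen. CPM were scaled by TMM in edgeR 4.0.16 (R 4.3.3), with genes kept by filterByExpr at a minimum count of 10, and the biological CV came from a fit with an intercept alone. TPM used the union of exons in GENCODE annotation of GRCm38, whose gene models can differ from the authors'. Library totals, DESeq2 1.42.0, other filters, other lengths and leaving out each animal were tried. A gene was called variable at a CV over 30% with a mean of 5 CPM or more. The spread calculation was tested on simulated data.

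Genes were named by rule: the 20 nuclear genes of highest TPM, the 13 mitochondrial protein genes, the leading members of the related-gene sets, the 20 genes of highest and 10 of lowest excess spread, all reference genes for PCR, and up to 4 members of highest TPM and 3 of highest CV in a list. Excess spread is the squared CV less its counting part. Other genes named were chosen after their values were seen, and some genes under these rules are not reported here. Gm10924 and Strit1 matched no row of the table. The labels name biological replicates, and no p-value was computed. Promoters were taken from RefSeq on GRCm38.p6.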

Additional observations from a re-analysis of the deposited data

Results flagged for a closer look

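Of 227 genes named in the text with a mean of 5 CPM or more, 25 (11%) had 1 animal far from the other animals for the spread among these. With 4 values, chance marks about 1 in 20 groups, but many of these genes were named for their spread, so the share cannot be set against that rate. The animal apart was a high animal 3 for 17 of the 25.

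The glucocorticoid and clock genes among them were high in animal 3, with Fkbp5 at 150 CPM against 20.9 to 35.4 CPM in the others, Map3k6 at 50.6 CPM, Ciart at 19.7 CPM and Bhlhe41 at 12.02 CPM. Hif3a, Rnf144b, Setdb2, Fam117b and Foxo3 were high in the same animal, at 17.1, 114, 26.2, 69.7 and 179 CPM. So were the muscle structure genes Tcap and Lmod2, at 1638 and 1203 CPM, and Ucp2, the uncoupling protein, at 102 CPM against 50.8 to 53.4 CPM.

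Some genes stood apart in animal 3 by a small margin. Fabp3 had 2566 CPM against 2226 to 2245 CPM, Myl2 had 6700 CPM against 5433 to 5639 CPM, and Gapdh had 3214 CPM against 2959 to 2997 CPM. Polr2a had 45.8 CPM and Adra1a had 19.9 CPM in that animal.

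In animal 2, B2m, H2-Aa and H2-Eb1, which belong to antigen presentation, were high at 99.7, 50.4 and 30.3 CPM. Cacna1c was low there at 273 CPM against 312 to 315 CPM, and Traf6 was low at 20.01 CPM against 20.5 CPM. In animal 1, Egr2 and Hdac5 were high at 24.8 and 95.9 CPM. In animal 4, Mybpc2 was high at 39.4 CPM against 30.9 to 31.7 CPM.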

How the results depend on the processing

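No paired analysis was possible because 1 group was described and no comparison between groups was made. With mitochondrially encoded genes left out before scaling, 474 genes held 50% of the counts, and the top 100 genes held 30.7%. With the longest transcript as length, the mitochondrial share of TPM was 41.2%. With library totals the median CV was 8.55%, the biological CV was 13.2%, and 1 reference gene exceeded a CV of 30%. Without a filter on low counts the biological CV was 13.8%, and the median by DESeq2 was 11.7%. The cause of these shifts was not tested, other than the genes left out by construction.

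Leaving out each animal in turn gave 130 to 143 genes for 50% of the counts, 46.9 to 47.7% for the top 100, a mitochondrial share of TPM of 47.7 to 48.3%, a median CV of 6.26 to 7.71% and a biological CV of 10.1 to 13.4%. Genes over a CV of 30% numbered 153 to 336, with 153 without animal 3. Genes in which animal 3 was at least 1.5 times every other numbered 132 to 171 in the fits that kept it. Per list, genes over 30% numbered 18 to 20 for immediate early genes, 6 to 14 for clock genes, 4 to 13 for glucocorticoid targets, 2 to 5 for fasting genes and 0 to 3 for reference genes, with the lowest count for clock, glucocorticoid and fasting genes without animal 3. The leading member stayed the same in 80 to 81 of 81 sets. Without division by length it stayed the same in 75 sets, and 61 of the leaders' shares moved by more than 1 SD. With the longest transcript 43 did. Counting error limits genes at 0.5 to 1 CPM, where it gives a CV of 21.8% of the 23.3% seen.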
